A study of Mus musculus with 16 samples.

Results

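The transforming growth factor beta (TGF-β) and bone morphogenetic protein (BMP) pathway was followed through 48 gene symbols, listed by their known roles as ligands, latent ligand binders, receptors, Smads, inhibitors and targets. Of these, 43 were found among the 18132 genes of the deposited table, and Smad4, Smurf2, Ski, Inhbb and Fstl3 were not analysed here. The table writes symbols in capitals (TGFB1, TGFBI, TGFBR2, GDF15, SMAD3), and they are given here in their mouse form. Unilateral ureteral obstruction (UUO) closes the ureter of a kidney and injures the tissue behind it, and RNA of whole kidneys was measured on Illumina MouseRef-8 v2 BeadChips, with 1 array per sample. The samples were 7 kidneys of wildtype (WT) and 5 of IL-33-deficient mice taken 24 h after UUO, and 2 untreated kidneys of each genotype served as controls. The UUO kidneys were from 2 sets of mice. Set 1 held 3 WT kidneys and 2 that lacked IL-33, set 2 held 4 and 3, and for the controls no set is stated. The Il33-deficient strain had been crossed for 10 generations to the C57BL/6J BomTac background, how its gene was disrupted is not given in the sources used here, and the methods give an age of 8 weeks for mice not described otherwise. The UUO mice carried a metal clip on the left ureter. The controls had no operation, so that the surgery and the obstruction cannot be told apart in these arrays.

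TGF-β is secreted in a latent form that is held in the extracellular matrix by binding proteins, and once released it joins a pair of receptor kinases, Tgfbr2 and Tgfbr1, which phosphorylate Smad2 and Smad3. BMPs act through related receptors on Smad1 and Smad5, and activins use receptors of their own that also reach Smad2 and Smad3. Inhibitory Smads, ubiquitin ligases, nuclear corepressors and secreted antagonists limit both arms. In the kidney, TGF-β is known as a driver of matrix deposition and fibrosis, whereas Bmp7 is required for kidney development and is known to oppose TGF-β.

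The start regions of the genes were read from RefSeq sequences of build GRCm38.p6, each covering 250 bases before and 50 bases after an annotated start. A window was matched for 30 of the 43 genes, 41 windows in all, and the windows were searched on both strands for 3 motifs that Smad proteins are known to bind. The palindrome GTCTAGAC lay in 0.213% of all 32851 windows in the reference table, the box CAGACA in 21.04% and the GC-rich element GGCGCC in 11.9%. Among the 30 genes, 1 held the palindrome, 7 held CAGACA and 10 held GGCGCC, against 0.248%, 23.6% and 13.4% of all 27025 genes with a window. The palindrome and the box both hold the bases AGAC, which the GC-rich element does not. A match is only a match of letters, and binding was not measured. Shown first are the windows of Tgfbi and Gdf15, the genes that rose by a log2 of 1 or more in both genotypes, of Tgfbr2, the receptor that rose most, and of Ltbp4, the gene that fell in both. Smad6, an inhibitory Smad, is shown because it alone held the palindrome. Gdf15 has another window, which also held none of the motifs and is not printed. Each window runs 5′ to 3′ on the strand of its gene, with capitals marking a motif and no capitals where none was found.
Tgfbi (chr13:56609336-56609635, plus strand): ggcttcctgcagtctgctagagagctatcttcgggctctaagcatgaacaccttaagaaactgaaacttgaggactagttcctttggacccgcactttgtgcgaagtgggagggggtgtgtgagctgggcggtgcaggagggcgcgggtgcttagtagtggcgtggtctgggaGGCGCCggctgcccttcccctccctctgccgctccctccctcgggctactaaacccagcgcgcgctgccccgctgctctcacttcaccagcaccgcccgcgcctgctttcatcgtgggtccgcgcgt
Gdf15 (chr8:70632407-70632706, minus strand): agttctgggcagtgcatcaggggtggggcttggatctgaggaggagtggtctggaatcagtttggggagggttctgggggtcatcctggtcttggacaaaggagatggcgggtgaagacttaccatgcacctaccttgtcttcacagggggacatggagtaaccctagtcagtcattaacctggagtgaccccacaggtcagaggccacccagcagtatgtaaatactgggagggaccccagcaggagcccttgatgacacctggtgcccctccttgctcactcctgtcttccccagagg
Tgfbr2 (chr9:116175314-116175613, minus strand): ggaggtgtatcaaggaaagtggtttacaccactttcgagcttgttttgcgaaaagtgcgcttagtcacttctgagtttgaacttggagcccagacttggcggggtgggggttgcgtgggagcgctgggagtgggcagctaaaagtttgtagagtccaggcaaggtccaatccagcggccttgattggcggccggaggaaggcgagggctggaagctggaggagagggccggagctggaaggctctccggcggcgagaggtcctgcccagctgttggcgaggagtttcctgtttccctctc
Ltbp4 (chr7:27333599-27333898, minus strand): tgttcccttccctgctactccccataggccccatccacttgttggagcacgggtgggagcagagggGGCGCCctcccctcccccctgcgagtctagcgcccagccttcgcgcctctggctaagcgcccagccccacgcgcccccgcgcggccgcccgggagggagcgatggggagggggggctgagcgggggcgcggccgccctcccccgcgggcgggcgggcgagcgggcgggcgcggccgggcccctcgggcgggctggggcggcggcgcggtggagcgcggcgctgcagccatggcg
Smad6 (chr9:64022010-64022309, minus strand): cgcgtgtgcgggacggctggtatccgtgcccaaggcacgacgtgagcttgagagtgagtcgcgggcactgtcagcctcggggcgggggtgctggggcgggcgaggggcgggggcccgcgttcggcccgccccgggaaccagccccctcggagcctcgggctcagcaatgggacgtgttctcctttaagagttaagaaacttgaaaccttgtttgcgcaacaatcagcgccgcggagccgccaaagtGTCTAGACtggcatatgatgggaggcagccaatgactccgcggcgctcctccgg

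All levels are log2 intensities after quantile normalization, and a difference of 1 on this scale is a 2-fold change in brightness. Background is not subtracted to 0, so that folds of dim genes are compressed, and 32 of the 43 genes had a mean above the median of all genes while 11 lay at or below it. For genes near or below that median, a missing call does not show a lack of change. Il33, the deleted gene, lay between 8.39 and 9.57 in the 7 WT kidneys and between 6.80 and 7.02 in the 5 IL-33-deficient kidneys after UUO. Where its probe lies in the deleted gene is not given in the sources used here. The labels do not say that each array is a separate animal, so that the p-values measure the spread between these samples. RNA came from whole kidneys, in which fewer cells of a type and less RNA per cell cannot be told apart.

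Obstruction moved the pathway unevenly. At an adjusted p of 0.05 in limma, 11 of the 43 genes rose and 2 fell in WT kidneys, where 6.97% of all genes rose and 8.22% fell. In IL-33-deficient kidneys 14 rose and 3 fell, where 10.6% of all genes rose and 11.2% fell. Calls in either direction made up 30.2% and 39.5% of the 43 genes, against 15.2% and 21.8% of all 18132. The 43 genes are brighter than most, and among the 9066 genes above the median intensity the background was higher. It was 29.0% for WT kidneys and 41.2% for IL-33-deficient ones, beside 13 (40.6%) and 17 (53.1%) of the 32 pathway genes above that median. The median log2 fold change of the 43 genes was 0.09 in each genotype, and that of all genes lay within 0.01 of 0. Both genotypes shared 12 called genes. Those that rose in both were Gdf15, Tgfbi, Inhba, Tgfbr2, Tgif1, Id1, Fstl1, Bmp6, Tgfbr1, Tgfb1i1 and Chrd, and Ltbp4 fell in both. Id4 was called in WT kidneys only, and Tgfb1, Smad1, Smad3, Eng and Bmp7 in IL-33-deficient kidneys only, and for none of these did the difference between the genotypes pass its own test. The other 25 genes were called in neither genotype, with log2 fold changes between -0.17 and 0.37.

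The WT count rests on few controls. Without control 3811 or control 3812 it was 4 genes in place of 13, and the count over all genes fell likewise, from 2754 to 1051 and 809. Without IL-33-deficient control 3813 it was 10 in place of 17, and 2276 of all genes in place of 3955. The lone control was then assumed to vary like the other groups. Gdf15, Tgfbi and Ltbp4 stayed called in WT kidneys without any single array. By groups that do not overlap, 15 of the 43 genes in WT (34.9%, against 21.4% of all genes) and 23 in IL-33-deficient kidneys (53.5%, against 35.0%) had every UUO kidney on one side of both controls. All 17 genes called in IL-33-deficient kidneys were among them, and 11 of the 13 called in WT kidneys, the exceptions being Tgif1 and Fstl1. Groups without overlap were not counted among the brighter genes alone, so the part of brightness in these shares is not known.

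**Figure D1:**
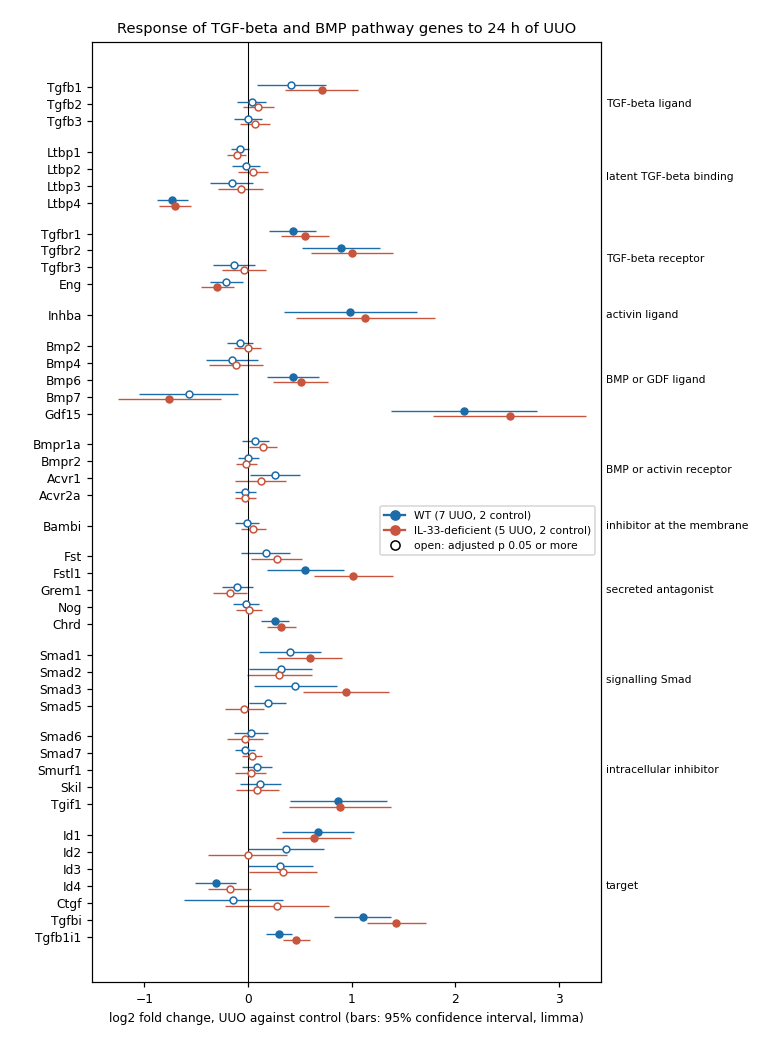
Log2 fold change of 43 pathway genes after 24 h of UUO against untreated controls in WT (blue, 7 against 2 kidneys) and IL-33-deficient mice (red, 5 against 2 kidneys), grouped by role, with 95% confidence intervals as bars and filled points for an adjusted p under 0.05. Gdf15 lies farthest to the right at 2.09 and 2.52, Ltbp4 lies to the left at -0.73 and -0.71, and most receptors of BMPs, intracellular inhibitors and antagonists lie near 0.

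Of the 3 TGF-β ligands, Tgfb1 was the one that moved. In WT kidneys Tgfb1 lay at 7.53 and 7.62 in the controls and between 7.65 and 8.40 after UUO, with a median of 7.98. In IL-33-deficient kidneys it lay at 7.30 and 7.48 in the controls and at 8.29, 8.38, 7.95, 8.03 and 7.85 after UUO. Every obstructed kidney exceeded both controls of its genotype, and the highest values came from set 1 in both genotypes. The rise passed the test in IL-33-deficient kidneys (0.71, SE 0.16, adjusted p = 0.00518 by limma) and the difference in WT kidneys did not (0.42, SE 0.16, adjusted p = 0.0933). Without IL-33-deficient control 3813 the difference was 0.62 and was not called. Tgfb2 and Tgfb3 stayed between 6.85 and 7.18 in all 16 kidneys, with differences of at most 0.10 in either genotype. These levels lie around the median of all values, 7.05, where folds are compressed and a change could have been missed.

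Of the 4 latent TGF-β binding proteins, most of which hold the inactive ligand in the matrix, Ltbp4 fell in both genotypes. Ltbp4 lay at 8.41 and 8.56 in WT controls and at 8.45 and 8.40 in IL-33-deficient controls. After UUO it lay between 7.64 and 7.90 in WT kidneys, with a median of 7.76, and at 7.70, 7.66, 7.75, 7.77 and 7.71 in IL-33-deficient kidneys. No obstructed kidney came within 0.4 of a control, and the 12 obstructed kidneys lay closer together than for any other of the 43 genes that changed by 0.7 or more in either genotype. Ltbp4 fell by 0.73 on the log2 scale in WT (SE 0.07, adjusted p = 2.62e-05) and by 0.71 in IL-33-deficient kidneys (SE 0.07, adjusted p = 1.97e-05), a 1.66-fold and a 1.63-fold loss. Ltbp4 has 3 windows, of which 2 overlap and hold the same GGCGCC and 1 holds none of the motifs, and 1 of the 2 is printed above. Ltbp1, Ltbp2 and Ltbp3 differed by -0.15 to 0.05 and were not called, and Ltbp1 and Ltbp2 lay near the median of all values.

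Both signalling receptors of TGF-β rose in both genotypes. Tgfbr2, the receptor that binds the ligand, lay at 9.73 and 9.68 in WT controls and between 10.10 and 11.07 after UUO with a median of 10.62. In IL-33-deficient kidneys it went from 9.81 and 9.84 to 11.05, 10.96, 10.79, 10.67 and 10.66. Neither genotype overlapped with its controls, and the lowest of the 12 was WT kidney 3820. The rise was 0.90 in WT (SE 0.18, adjusted p = 0.00348) and 1.00 in IL-33-deficient kidneys (SE 0.19, adjusted p = 0.00112). Tgfbr1, the kinase that Tgfbr2 activates, rose by 0.43 (WT, adjusted p = 0.0117) and 0.55 (IL-33-deficient, adjusted p = 0.00178), with controls between 9.01 and 9.07 and obstructed kidneys between 9.20 and 9.81. The coreceptors behaved differently. Eng, endoglin of endothelial cells, fell by 0.29 in IL-33-deficient kidneys (adjusted p = 0.0112) and differed by -0.21 in WT kidneys (adjusted p = 0.0728), and Tgfbr3, betaglycan, differed by -0.14 and -0.04 without a call. Of 8 endothelial markers, none rose and 1 fell in WT kidneys and 1 rose and 2 fell in IL-33-deficient kidneys, and their summed intensity lay between 6234 and 7530 in the obstructed kidneys and between 6505 and 7070 in the controls. Calls made up 12.5% and 37.5% of these markers, against 15.2% and 21.8% of all genes. The part of endothelial cells in the fall of Eng was not tested.

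Gdf15, a distant member of the family that is released under cellular stress, showed the largest change of the 43 genes. In WT kidneys Gdf15 lay at 8.35 and 8.61 in the controls, at 9.56, 11.50 and 10.37 after UUO in set 1, and in set 2 the values were 10.65, 10.96, 10.28 and 10.63. In IL-33-deficient kidneys it lay at 8.24 and 7.85 in the controls, after UUO in set 1 at 10.57 and 10.64, while set 2 gave 10.75, 10.70 and 10.19. The groups did not overlap in either genotype, and the lowest and the highest obstructed kidney were both WT kidneys of set 1, 3818 and 3819. The rise was 4.25-fold in WT (log2 2.09, SE 0.33, adjusted p = 0.000933) and 5.75-fold in IL-33-deficient kidneys (log2 2.52, SE 0.34, adjusted p = 0.000125). The exact permutation p was 0.0278 for 7 against 2 kidneys and 0.0476 for 5 against 2, the smallest these numbers allow.

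Inhba, which encodes the subunit of activin A, was the other ligand with a change of about 2-fold. It lay at 7.07 and 7.03 in WT controls and between 7.12 and 8.61 after UUO with a median of 7.97, and in IL-33-deficient kidneys it went from 6.84 and 7.02 to 8.18, 7.88, 8.29, 8.33 and 7.62. WT kidney 3818 stood only just above the controls, while every other obstructed kidney stood 0.5 or more above them. The rise was 0.99 in WT (SE 0.30, adjusted p = 0.0383) and 1.13 in IL-33-deficient kidneys (SE 0.31, adjusted p = 0.0165). The call in WT kidneys was lost without any of WT kidneys 3819, 3892, 3894 or 3895, or without either control, and the call in IL-33-deficient kidneys was lost without either of their controls.

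Of the 4 BMPs, Bmp6 and Bmp7 moved in opposite directions. Bmp6 rose by 0.43 in WT (SE 0.12, adjusted p = 0.0211) and by 0.51 in IL-33-deficient kidneys (SE 0.12, adjusted p = 0.00706), from between 7.08 and 7.16 in the 4 controls to between 7.26 and 7.83 in the 12 obstructed kidneys. Bmp7, made by tubule epithelium, lay at 8.53 and 8.80 in WT controls and between 7.62 and 8.85 after UUO with a median of 8.05. In IL-33-deficient kidneys Bmp7 went from 8.57 and 8.63 to 7.50, 7.96, 7.94, 7.84 and 7.95. The WT groups overlapped, since WT kidney 3820 was as high as its controls, and the IL-33-deficient groups did not. Bmp7 fell by 0.76 in IL-33-deficient kidneys (SE 0.23, adjusted p = 0.0298) and differed by -0.57 in WT kidneys (SE 0.22, adjusted p = 0.11). The call in IL-33-deficient kidneys was lost without kidney 3821 or either control. Of 10 kidney tubule markers, none rose and 4 fell in WT and 7 fell in IL-33-deficient kidneys, with a summed intensity between 63661 and 69650 in the controls, between 33257 and 65901 in WT and between 29950 and 37156 in IL-33-deficient kidneys after UUO. Calls made up 40% and 70% of the tubule markers, against 15.2% and 21.8% of all genes. The part of tubule loss in the fall of Bmp7 was not tested. Bmp2 and Bmp4 were not called, nor were the receptors Bmpr1a, Bmpr2, Acvr1 and Acvr2a, whose differences ran from -0.03 to 0.26. Of these, Bmp2, Bmpr2 and Acvr2a lay near or below the median of all values, where a change could have been missed.

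**Figure D2:**
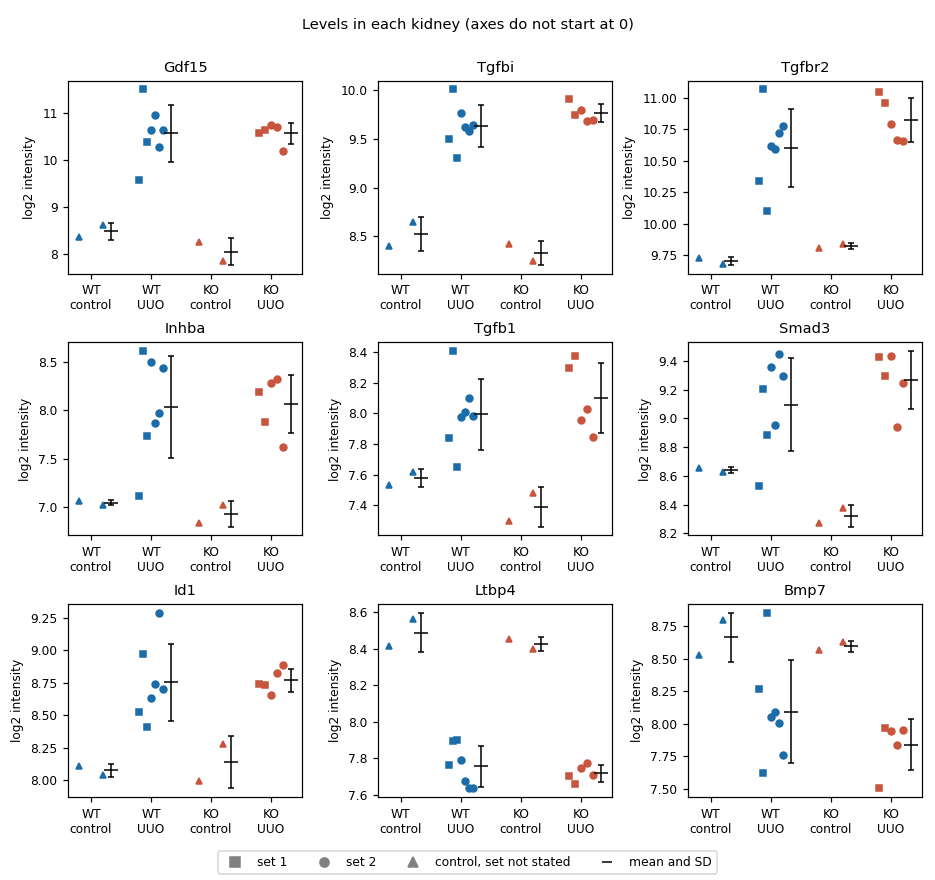
Log2 intensity of 9 pathway genes in each of the 16 kidneys, with squares for set 1, circles for set 2, triangles for untreated controls of unstated set, and a bar for the mean and SD of each group. Gdf15, Tgfbi, Tgfbr2, Inhba, Tgfb1 and Id1 lie above the controls in every obstructed kidney, Ltbp4 lies below them in every one, and in Smad3 and Bmp7 a WT kidney of set 1 reaches the controls.

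Among the secreted antagonists, Fstl1 and Chrd rose. Fstl1, a follistatin-like glycoprotein of mesenchymal cells that binds BMPs, rose by 0.55 in WT (SE 0.17, adjusted p = 0.0432) and by 1.02 in IL-33-deficient kidneys (SE 0.18, adjusted p = 0.000841). Its values in each kidney are given with the comparison of the genotypes. The WT call was lost without any single WT array except kidney 3820, whose absence raised the difference to 0.65. Chrd, chordin, which keeps BMPs from their receptors, rose by 0.26 in WT (adjusted p = 0.0103) and 0.32 in IL-33-deficient kidneys (adjusted p = 0.00203), from between 7.47 and 7.63 in the controls to between 7.77 and 8.02. Follistatin (Fst) differed by 0.17 and 0.28, gremlin (Grem1) by -0.10 and -0.17 and noggin (Nog) by -0.02 and 0.01, none with a call. Grem1 and Nog lay near or below the median of all values, where a change could have been missed. Bambi, a decoy receptor, lay between 6.72 and 6.93 in all kidneys, close to the lowest intensity in the table of 6.59, where a change could hardly have been measured.

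Of the 4 signalling Smads, Smad1 and Smad3 rose in IL-33-deficient kidneys and none was called in WT kidneys. Smad3, the effector of TGF-β and activin, lay at 8.65 and 8.63 in WT controls and between 8.53 and 9.45 after UUO with a median of 9.20, and in IL-33-deficient kidneys it went from 8.27 and 8.38 to 9.42, 9.30, 9.43, 8.94 and 9.24. WT kidney 3818 lay below both of its controls, and the IL-33-deficient groups did not overlap. Smad3 rose by 0.94 in IL-33-deficient kidneys (SE 0.20, adjusted p = 0.00255) and differed by 0.46 in WT kidneys (SE 0.19, adjusted p = 0.131). The IL-33-deficient controls were themselves 0.32 lower than the WT controls (SE 0.23), a difference that did not pass the test, and after UUO the genotypes differed by 0.17 (SE 0.15). Smad1, an effector of BMPs, rose by 0.59 in IL-33-deficient kidneys (SE 0.15, adjusted p = 0.00767) and differed by 0.41 in WT kidneys (SE 0.14, adjusted p = 0.0656). Without IL-33-deficient control 3814 its difference was 0.45 and was not called. Smad2 differed by 0.31 and 0.30, and Smad5 by 0.19 and -0.04, without calls.

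Of the 5 inhibitors inside the cell, Tgif1 rose in both genotypes and the other 4 were not called. Tgif1, a homeobox corepressor of Smad2 and Smad3, lay at 7.33 and 7.08 in WT controls and between 7.30 and 8.43 after UUO with a median of 8.23. In IL-33-deficient kidneys it went from 7.24 and 7.19 to 7.97, 8.14, 8.35, 8.17 and 7.86. WT kidney 3818 was again at the level of the controls. The rise was 0.87 in WT (SE 0.22, adjusted p = 0.0145) and 0.89 in IL-33-deficient kidneys (SE 0.23, adjusted p = 0.0106). The call in each genotype was lost without either of its controls, and the WT call also in a fit of the WT arrays alone. Smad6 and Smad7, the inhibitory Smads, Smurf1, a ubiquitin ligase that removes receptors and Smads, and Skil, a corepressor, differed by -0.03 to 0.12 and were not called. Smad7 lay between 6.66 and 6.86 in all kidneys, near the floor of the table, so that no statement on its change could be made. Smad6 and Smurf1 lay near the median of all values, where a change could have been missed. The palindrome printed above for Smad6 went with differences of 0.03 and -0.03.

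Of the 7 targets and associated genes, Tgfbi rose most. Tgfbi encodes a matrix protein that was named for its induction by TGF-β. In WT kidneys it lay at 8.40 and 8.65 in the controls, at 9.50, 10.01 and 9.31 after UUO in set 1, and in set 2 the values were 9.76, 9.62, 9.58 and 9.64. In IL-33-deficient kidneys it lay at 8.42 and 8.25 in the controls, after UUO in set 1 at 9.91 and 9.74, while set 2 gave 9.80, 9.68 and 9.69. Every obstructed kidney stood at least 0.6 above every control. The rise was 2.15-fold in WT (log2 1.11, SE 0.13, adjusted p = 0.000107) and 2.7-fold in IL-33-deficient kidneys (log2 1.43, SE 0.13, adjusted p = 9.34e-06), with exact permutation p-values of 0.0278 and 0.0476, the smallest possible. Tgfb1i1 (Hic-5), a focal adhesion protein induced by TGF-β, rose by 0.30 in WT (SE 0.06, adjusted p = 0.00307) and by 0.46 in IL-33-deficient kidneys (SE 0.06, adjusted p = 9.45e-05).

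The Id genes, which encode inhibitors of basic helix-loop-helix factors and are classical targets of BMPs, went different ways. Id1 lay at 8.28 or below in the 4 controls and between 8.41 and 9.29 in the 12 obstructed kidneys. It rose by 0.68 in WT (SE 0.16, adjusted p = 0.0116) and 0.63 in IL-33-deficient kidneys (SE 0.17, adjusted p = 0.014). The WT call of Id1 was lost without either WT control and in a fit of the WT arrays alone. The call in IL-33-deficient kidneys was lost without control 3813. Id4 fell by 0.31 in WT kidneys (SE 0.09, adjusted p = 0.0352) and differed by -0.18 in IL-33-deficient kidneys (SE 0.10, adjusted p = 0.248). The WT call of Id4 was lost without either WT control, without any of WT kidneys 3892, 3894 or 3895, and in a fit of the WT arrays alone. Id2 differed by 0.37 in WT and by less than 0.01 in IL-33-deficient kidneys, and Id3 by 0.31 and 0.34, without calls. Ctgf, the connective tissue growth factor that is widely used as a readout of TGF-β, was bright in every kidney and was not called. It lay at 11.81 and 11.91 in WT controls and between 11.16 and 12.03 after UUO with a median of 11.83, and at 11.84 and 10.96 in IL-33-deficient controls and 12.02, 11.51, 11.38, 11.74 and 11.75 after UUO. The groups overlapped in both genotypes, with differences of -0.14 (interval -0.62 to 0.34) and 0.28 (interval -0.22 to 0.78).

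**Figure D3:**
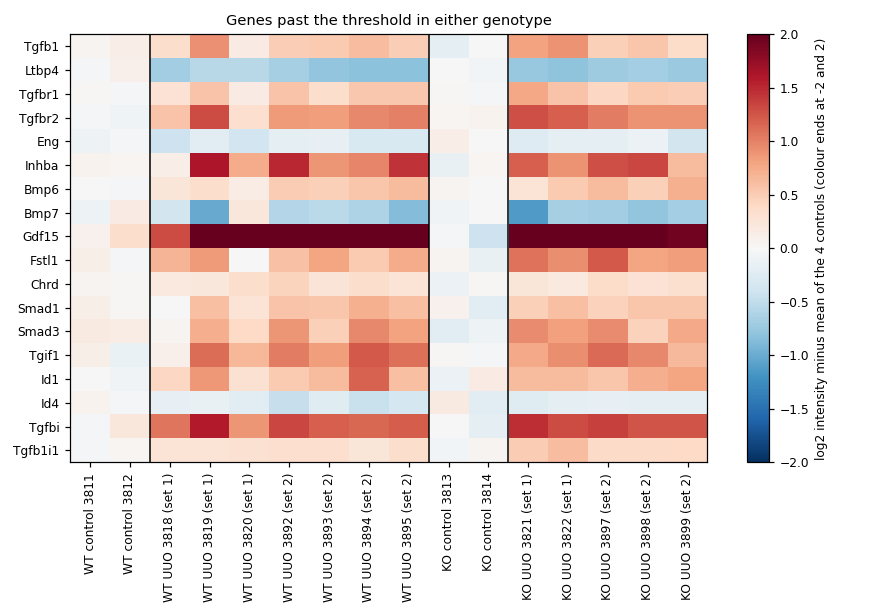
Each cell of the map is the log2 intensity of a gene called in either genotype in a kidney, minus the mean of the 4 controls, with red above and blue below and the colour ending at -2 and 2. The 18 rows hold the called genes and the 16 columns the kidneys, and WT kidneys 3818 and 3820 are paler than the other obstructed kidneys over most rows.

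The WT kidneys of set 1 differed among themselves over these genes more than the other kidneys did. Among the 11 genes that rose in WT kidneys, kidney 3820 was the lowest of the 7 in 6 and kidney 3818 in 4, while kidney 3819 was the highest in 6. The median difference from the WT controls over these genes was 0.29 in kidney 3818 and 0.33 in kidney 3820, 0.90 in kidney 3819, between 0.57 and 0.92 in set 2, and between 0.67 and 0.94 in the IL-33-deficient kidneys over the 14 genes that rose there. With set 1 alone after UUO, 1 of the 43 genes was called in WT kidneys, Ltbp4, beside 188 of all genes, and with set 2 alone 21 were, beside 4241 of all genes. In IL-33-deficient kidneys 10 were called with set 1 alone, beside 2258 of all genes, and 19 with set 2 alone, beside 4453. The 19 were the 17 genes above with Fst and Smad2. Markers of tubular injury and of tubule also set kidneys 3820 and 3818 apart from the other WT kidneys, though they did not follow the same order throughout. Havcr1 (KIM-1) was 10.42 in kidney 3820 and 12.84 in kidney 3818, between 13.12 and 13.95 in the other WT kidneys and between 13.61 and 13.87 in the IL-33-deficient ones, against 7.07 to 7.37 in controls. The summed tubule markers stood at 65901 in kidney 3820 and 53197 in kidney 3818, and between 33257 and 48721 in the other WT kidneys. Their part in the lower values of the pathway genes was not tested.

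Of 61 further ligands, receptors, modulators and matrix activators of the pathway in the table, 5 rose and 4 fell in WT (14.8%) and 7 rose and 4 fell in IL-33-deficient kidneys (18.03%), close to the background of all genes. None of them passed in both genotypes with a log2 change of 1 or more. Of 20 further genes known to be induced by TGF-β, 11 rose and none fell in WT kidneys, and 12 rose and 1 fell in IL-33-deficient kidneys. Calls made up 55% and 65% of this list, against 15.2% and 21.8% of all genes. Among genes above the median intensity the background was 29.0% and 41.2%. The list was chosen with earlier results of these data known, so that its counts are not independent evidence. Timp1, an inhibitor of matrix metalloproteinases, led with log2 changes of 4.05 and 4.76, followed by Junb, an AP-1 factor (1.73 and 2.03), Cdkn1a, the cell cycle inhibitor p21 (1.25 and 1.52), Col1a1, a chain of type I collagen (1.17 and 1.63), and Col4a1, a chain of basement membrane collagen (1.12 and 1.46). All 5 also answer to signals other than TGF-β. Of 8 fibroblast and pericyte markers, 3 rose and 1 fell in WT and 4 rose in IL-33-deficient kidneys, and their summed intensity lay between 3311 and 3739 in the controls, between 3309 and 5040 in WT and between 5251 and 6203 in IL-33-deficient kidneys after UUO. Of 11 leukocyte markers, 3 rose and 1 fell in WT and 5 rose and 1 fell in IL-33-deficient kidneys, with sums of 1825 to 2410 in the controls, 2887 to 6023 in WT and 4112 to 6261 in IL-33-deficient kidneys after UUO. Calls made up 50% of the fibroblast and pericyte markers in each genotype, and 36.4% (WT) and 54.5% (IL-33-deficient) of the leukocyte markers. The shares of all genes were 15.2% and 21.8%. The part of fibroblasts, pericytes and leukocytes in the rise of Tgfb1, Tgfbi, Tgfbr2 and the other genes was not tested.

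The question whether IL-33 changes the response was put to each gene as the difference between the genotypes in their response to UUO. None of the 43 genes and none of the 18132 passed at an adjusted p of 0.05, a background of 0%. At an unadjusted p under 0.05 none of the 43 passed, against 4.74% of all genes (860 genes), and the smallest unadjusted p of the 43, from limma, was 0.0713, for Tgfb1i1. The differences ran from -0.37 for Id2 to 0.49 for Smad3. For Smad3 the interval went from -0.09 to 1.07, and for Fstl1, at 0.47, from -0.07 to 1.00, so that neither a lack of difference nor one of 2-fold could be told from these arrays. Among the 12 genes called in both genotypes the fold was larger in IL-33-deficient kidneys in 10, and each of these folds rests on the same control pair of its genotype. That count was not made over all genes and shows nothing particular to the pathway. The median absolute log2 change of all genes was also larger in IL-33-deficient kidneys (0.074, against 0.066 in WT). The control kidneys of the 2 genotypes gave no call either (0% of all genes, and 0 of the 43 against 3.66% of all genes, or 664 genes, at an unadjusted p under 0.05), with differences from -0.46 to 0.20 and intervals that reached 0.25 on either side at the median.

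After UUO, the direct comparison of 5 IL-33-deficient with 7 WT kidneys used the threshold of the study, which asks for p under 0.05 before adjustment, an adjusted p under 0.25 and a change of more than 1.3-fold. The contrast of the study held fewer WT arrays than the 7 used here, and its text does not name them. None of the 43 genes passed, and 2 of 18132 genes did (0.0110%), Il33 and Acta2. The count over all genes ranged from 1 to 309 when single arrays were left out, with 309 without WT kidney 3819, 94 without IL-33-deficient kidney 3899 and 31 without WT kidney 3820. At an unadjusted p under 0.05 alone, 3 of the 43 genes (6.98%) passed, fewer than the 10.3% of all genes (1874 genes). The differences of the 43 genes lay between -0.25 and 0.38. For 34 of them the 95% confidence interval stayed within a 1.3-fold change in either direction, which leaves Tgfbr2, Tgif1, Smad3, Inhba, Fstl1, Bmp7, Id2, Id3 and Gdf15 with wider ones. The 34 include dim genes such as Smad7, Nog and Bambi, whose folds are compressed. For these a narrow interval does not show equal levels. The genes with an unadjusted p under 0.05 were Fstl1 and Tgfb1i1, higher in IL-33-deficient kidneys, and Bmp4, lower.

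In set 1, Fstl1 had WT values of 8.82, 8.99 and 8.13, and those without IL-33 were 9.23 and 9.06. In set 2 its WT values were 8.72, 8.92, 8.66 and 8.88, and those without IL-33 were 9.36, 8.92 and 8.98. WT kidney 3820, at 8.13, was within the range of the controls (7.99 to 8.25), and the genotypes overlapped only in set 2. The difference was 0.38 (SE 0.13, interval 0.09 to 0.67, adjusted p = 0.37 by limma, exact permutation p = 0.0152). It was 0.50 in set 1 (exact p = 0.2) and 0.29 in set 2 (exact p = 0.0857). Without WT kidney 3820 it fell to 0.28, and without WT kidney 3819 it passed the threshold of the study (0.42, adjusted p = 0.213). The fibroblast and pericyte markers given above moved the same way, with no overlap of the sums between the genotypes, and their part in the difference of Fstl1 was not tested.

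Tgfb1i1 was the one gene of the 43 whose genotypes did not overlap after UUO, as did 0.756% of all genes. In set 1 the WT values were 7.72, 7.71 and 7.74 and those without IL-33 were 7.95 and 8.06. In set 2 the WT values were 7.77, 7.77, 7.67 and 7.79 and those without IL-33 were 7.82, 7.83 and 7.84. The 4 controls lay between 7.37 and 7.49, so that every obstructed kidney was above them. The difference between the genotypes was 0.16 (SE 0.04, interval 0.07 to 0.25, adjusted p = 0.311), a 1.12-fold change, below the minimum of the study. The exact permutation p of 0.00126 is the smallest possible and largely restates the lack of overlap. The exact p-values of Fstl1, Tgfb1i1 and Bmp4 were not adjusted for the choice of these genes from the 43. In set 1 the difference was 0.28 (exact p = 0.1) and in set 2 it was 0.08 (exact p = 0.0571). Bmp4, a BMP of mesenchymal cells, had WT values of 8.95, 8.87 and 9.17 in set 1, where those without IL-33 were 8.77 and 8.67. In set 2 its WT values were 8.74, 8.92, 9.19 and 8.94, and those without IL-33 were 8.93, 8.68 and 8.86. The difference was -0.19 (SE 0.08, adjusted p = 0.439, exact permutation p = 0.0543), with the genotypes apart in set 1 and overlapping in set 2, and the controls, at 8.75 to 9.29, covered most of these values.

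**Figure D4:**
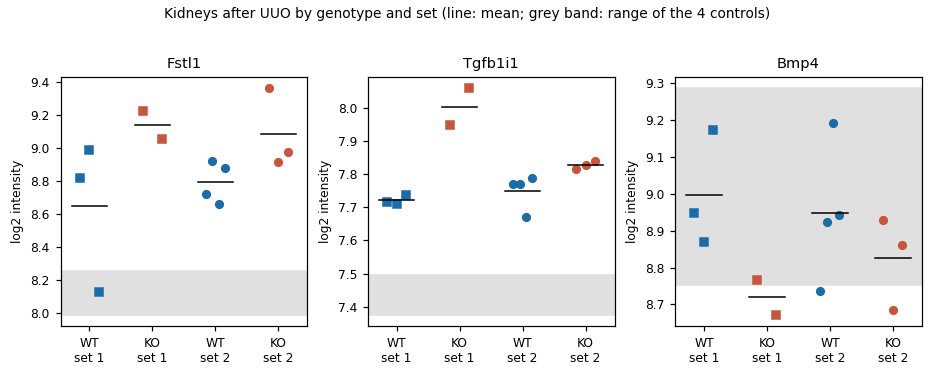
Log2 intensity of Fstl1, Tgfb1i1 and Bmp4 in the 12 obstructed kidneys by genotype and set, with a line at the mean of each subgroup and a grey band for the range of the 4 controls. IL-33-deficient kidneys lie above WT kidneys for Tgfb1i1 in both sets, for Fstl1 a WT kidney at 8.13 falls in the band of the controls, and for Bmp4 most points lie in the band.

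Of the 43 genes, 30 were higher in IL-33-deficient than in WT kidneys in set 1 and 20 in set 2, and 22 had opposite signs in the 2 sets. The median difference was 0.07 in set 1 and -0.02 in set 2, so that many signs rest on small differences. These counts were not made over all genes, and they show nothing particular to the pathway. Tgfbr2 differed by 0.50 in set 1 and 0.03 in set 2, Smad3 by 0.49 and -0.06, Tgfb1 by 0.37 and -0.07, and Bmp7 by -0.51 and -0.07. These set 1 differences include WT kidneys 3818 and 3820, with the weaker responses given above. Their exact permutation p in set 1 was 0.4 for Tgfbr2, 0.2 for Smad3, 0.4 for Tgfb1 and 0.4 for Bmp7. With 2 against 3 kidneys in set 1 the smallest possible p is 0.1, so that no gene could pass there. Within the sets 86 such tests were made (43 genes, 2 sets), without adjustment. The smallest exact p in set 2 was 0.0286, for Tgfbr3, which differed by 0.15 there and by -0.11 in set 1.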

How the data were processed

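Labeled RNA of 16 mouse kidneys was hybridized to Illumina MouseRef-8 v2 arrays. The authors imported the arrays with beadarray and deposited 1 linear intensity per gene symbol, covering 18132 genes on each array and no missing value. The submitters' processing notes name BeadStudio version 2. The background correction, the normalization and the joining of probes are not given in the sources used here. Array medians lay between 132 and 133, so the deposited intensities had already been scaled alike. The number of arrays, 2 to 7 per group, limits the precision.

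The 43 genes were matched by symbol. The members, roles and lists were chosen with earlier results of these data known. Intensities were quantile-normalized, taken to log2 and tested with limma 3.58.1 (lmFit, then eBayes) in R 4.3.3, without an intensity filter, and p-values were adjusted by Benjamini-Hochberg over the 18132 genes, after the scripts had been tested on simulated data. The responses to UUO, their difference and the control kidneys came from a model of 4 groups and 16 arrays (threshold adjusted p 0.05), and the genotypes after UUO were compared over 12 arrays at the threshold of the study. Single values were tested by exact two-sided permutation (all splits, 36 for 7 against 2 and 21 for 5 against 2). Genes past the threshold were named with values, those with a log2 change of 1 or more in both genotypes or an unadjusted p under 0.05 between genotypes after UUO by array, and others by range. A few uncalled members, such as Ctgf, were given with values after these had been seen. Alternatives were other scalings, background, weights, filters, fold minimums, sets and arrays left out. Sequences came from RefSeq (GRCm38.p6) and figures were drawn in Python 3.11.15 with matplotlib 3.10.9.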

Additional observations from a re-analysis of the deposited data

Results flagged for a closer look

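In 7 of 86 groups searched (43 genes in the 7 WT and the 5 IL-33-deficient kidneys after UUO) the lowest or highest kidney stood far from the rest of its group, where chance gives about 1 in 20. In WT kidneys Fstl1 was 8.13 in kidney 3820 (others 8.66 to 8.99), Acvr2a was 6.84 in kidney 3893 (others 6.94 to 7.003) and Id3 was 8.70 in kidney 3819 (others 8.06 to 8.32). In IL-33-deficient kidneys Bmp7 was 7.50 in kidney 3821 (others 7.84 to 7.96), Id3 was 8.69 in kidney 3822 (others 8.22 to 8.34), Smad7 was 6.76 in kidney 3897 (others 6.83 to 6.86) and Nog was 6.78 in kidney 3821 (others 6.84 to 6.86). The last pair of genes and Acvr2a lie near the background of the arrays.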

How the results depend on the processing

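No paired analysis was possible because the labels give each sample a number of its own and name no pairs. No gene called in a response, nor Fstl1, Tgfb1i1 or Bmp4 after UUO, changed its direction under an alternative. In the comparison of the genotypes after UUO, 22 of the 43 genes had opposite signs in the 2 sets, a count not made over all genes. Members called in WT kidneys numbered 13 in the main setting, 8 with WT arrays only, 1 with set 1, 21 with set 2 and 4 to 16 without single arrays, and all genes numbered 2754, against 1778, 188, 4241 and 809 to 3578 in the same order and 1719 with a fold change above 1.3. In IL-33-deficient kidneys 17 members became 10 with set 1 and 10 to 17 without single arrays, and 3955 genes became 2594 with the fold change, 2258 with set 1 and 2276 to 3798. The difference in response, 0 genes, was 2 with set 2 and 0 to 1 without single arrays, never a member. After UUO the 2 genes became 80 with array weights, 168 among genes above the median intensity, 1 with the set as a block, 0 with set 1, 81 with set 2, 127 with 4 groups in the model, 1 at an adjusted p of 0.05 and 1 to 309 without single arrays, and the members, 0, became 0 to 1. The cause was not tested, except that sets and single arrays leave fewer samples. Without a second normalization, with median centring, another background or a variance trend, the same 13 and 17 members were called. Array weights added Tgfb1, Smad1, Smad2, Smad3 and Bmp7 in WT kidneys. Genes near the floor of 6.59 cannot show a fall.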
